A study of Drosophila melanogaster with 84 samples.

Results

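The comparison described here is the step across dusk, from 10 h to 14 h of the day, in sorted clock neurons of the adult fly brain. It was made once across lights-off, as ZT14 against ZT10 in a 12:12 light:dark (LD) cycle, and once at the same hours in constant darkness (DD), as CT14 against CT10. The libraries were chosen by the time in their titles, which gave 28 of the 84 libraries, with 6 at ZT14, 6 at ZT10, 8 at CT14 and 8 at CT10. Libraries of 1 time point that carry the same date number in their titles were summed as 1 batch, which gave 10 of the 28 batches. There were 2 batches at ZT14 (a and b), 3 at ZT10 (a, b and c), 2 at CT14 (a and b) and 3 at CT10 (a, b and c), and a letter names a batch within its own time point only. Wells were kept as cells with 1000 to 6000 detected genes, 6000 to 75000 UMIs (unique molecular identifiers, 1 per captured mRNA molecule) and an entropy of at least 5.5. This left 1642 of the 4595 cells of the series, with 413 cells at ZT14, 362 at ZT10, 354 at CT14 and 513 at CT10.

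All groups share 1 genotype. The *Clk856-GAL4* driver expressed EGFP in most, but not all, clock neurons of the brain and also in a few cells outside the clock network, and the EGFP-positive cells were sorted singly and sequenced with CEL-Seq2, a method that counts UMIs at the 3′ ends of polyadenylated RNA. The adult flies, with as many males as females, had been entrained to LD, and the DD flies were taken on the third day of darkness. No other allele or agent was used, except that blockers of neuronal firing and of glutamate receptors were present during dissection. The sorted cells are therefore a mixture of clock neuron types, and in values summed over a batch a different mixture of cells and a different amount of RNA per cell cannot be told apart. LD and DD share no date number, so that a difference between them is also one between sets of batches.

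In the *Drosophila* clock, the CLK-CYC heterodimer activates the genes of its own repressors, PER and TIM, and also *vri*, *Pdp1* and *cwo*. VRI represses *Clk* and PDP1 activates it, which ties a second loop to the first. Transcripts of *tim* and *per* climb through the second part of the day and peak in the early night, and those of *Clk* run in the opposite phase. Light reaches the clock through CRY, a blue-light photoreceptor that sends TIM protein to degradation, so dusk is the time when TIM protein can begin to accumulate, whereas a free-running clock passes the same hours without this signal.

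The 28 libraries held 487260 to 4082593 UMIs and 27 to 79 cells each, with a median of 8424 to 30878 UMIs and 1356 to 3968 genes per cell. ZT14 batch a, CT10 batch a and CT10 batch b stood apart from the other dusk batches in the share of their UMIs that fell on rarely detected genes, defined as the 10843 genes with a median below 0.1 UMIs per 10000 UMIs (TP10K) over all 28 batches. This share was 8.06% and 2.47% in ZT14 batches a and b and 1.86%, 1.72% and 1.63% in ZT10 batches a to c. In DD it was 3.41% and 2.18% in CT14 batches a and b and 7.25%, 6.03% and 2.22% in CT10 batches a to c. Markers of neurons were abundant in every batch, with a summed level of 65.7 and 72.1 TP10K at ZT14, 99.2 to 101 TP10K at ZT10, 102 and 105 TP10K at CT14 and 94.0 to 116 TP10K at CT10 over 7 genes. The 11 glial markers measured summed to 12.4 and 0.99 TP10K in ZT14 batches a and b, 0.50 to 0.70 TP10K at ZT10, 0.82 to 0.89 TP10K at CT14 and 5.03, 4.51 and 0.96 TP10K in CT10 batches a to c. The batches with the highest glial sums were thus those with the highest shares of rarely detected genes. In ZT14 batch a most of the sum was *Gs2* (glutamine synthetase), with 2533 UMIs. *Gs2* had 717 and 824 UMIs in CT10 batches a and b, and in all batches other than ZT14 batch a it was the smaller part of the sum. *repo*, the defining transcription factor of glia, was at 0.0315 TP10K or less in all 10 batches. The 14 muscle markers summed to 5.42 and 0.70 TP10K in ZT14 batches a and b and to 0.24 to 0.41 TP10K at ZT10, and in DD to 0.16 and 0.75 TP10K at CT14 and 0.25 to 1.68 TP10K at CT10. The 13 photoreceptor markers measured did not exceed 0.40 TP10K in any dusk batch. The part of these batch differences in the results below was not tested beyond leaving batches out and a covariate for the rarely detected share, which comes from the same UMIs. Values without these batches are given beside the results they touch most.

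Few genes passed the test across dusk in LD, and none did in DD. With the quasi-likelihood test of edgeR on UMIs summed per batch and Benjamini-Hochberg adjustment over 10616 genes, 14 genes rose at ZT14 relative to ZT10, which is 0.132% of the genes tested, and 0 fell (0%). In DD, 0 genes rose (0%) and 0 fell (0%) at CT14 relative to CT10, and 0 genes differed between the LD change and the DD change. At an unadjusted p below 0.05 there were 1898 genes in LD, 847 in DD and 2312 for the difference. With the share of rarely detected genes as a covariate, a setting chosen after seeing the data, these counts were 390, 419 and 237. The share was computed from the same UMIs that were tested and was highest in ZT14 batch a. This setting therefore cannot tell the share apart from that batch. DESeq2 called 776 genes higher and 35 lower in LD, 1 higher and 6 lower in DD, and 995 for the difference, whereas limma voom with sample quality weights called 6 genes higher in LD and 0 in DD or for the difference. Of the 12 steps between consecutive time points in LD and in DD, this was the only one with a call. As a yardstick for counts of genes below, batches of the later and the earlier time did not overlap in the higher direction for 20.8% and in the lower direction for 11.1% of the genes tested in LD, and for 12% and 11.6% in DD.

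All 14 genes were at their highest level in ZT14 batch a. *CG17162* (chromosome X, 23084960 to 23096735) was at 72.7 and 6.21 TP10K in ZT14 batches a and b, against 1.26, 1.18 and 0.70 TP10K in ZT10 batches a to c. In DD it was at 1.13 and 0.89 TP10K at CT14 and at 0.99, 1.14 and 1.08 TP10K at CT10. Both ZT14 batches were above all ZT10 batches, and ZT14 batch a was far above ZT14 batch b. The 4 libraries of ZT14 batch b were at 5.20, 1.16, 1.09 and 15.2 TP10K, so that 2 of them lay within the range of the ZT10 libraries. Without the highest the batch was at 2.76 TP10K. Without the higher library of ZT14 batch a, that batch was at 47.5 TP10K. The log2 change in LD was 5.28 ± 0.84 (SE, adjusted p = 0.030, edgeR), and -0.40 with the date number as a block. *CG14207*, which encodes a small heat shock protein (chromosome X, 19605199 to 19611413), was at 25.3 and 1.16 TP10K at ZT14, against 0.78, 0.78 and 0.79 TP10K at ZT10, a log2 change of 4.11 ± 0.81 (adjusted p = 0.047, edgeR). *dl*, the NF-kappaB family transcription factor Dorsal (chromosome 2L, 17436830 to 17450364), was at 3.92 and 0.087 TP10K at ZT14, against 0.064, 0.024 and 0.036 TP10K at ZT10, a log2 change of 5.61 ± 1.03 (adjusted p = 0.045, edgeR). For these genes, too, the ZT14 and ZT10 batches did not overlap, but ZT14 batch b lay near the ZT10 batches.

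*Cyp4e3*, a cytochrome P450, had 420 and 134 UMIs in ZT14 batches a and b and 0 UMIs in all 3 ZT10 batches. Counted against a floor of 3 UMIs over the ZT10 group, it was at least 177-fold higher at ZT14. Single libraries held most of these UMIs, with 401 of them in 1 library of ZT14 batch a and 133 in 1 library of ZT14 batch b. Without the library of batch a that held 401, the bound was 60.7-fold, and without that of batch b which held 133 it was 157-fold. *SmydA-1*, a SET and MYND domain gene, had 3831 and 11 UMIs in ZT14 batches a and b, against 2, 0 and 2 UMIs in ZT10 batches a to c. Almost all of the UMIs of *SmydA-1* came from 1 library of ZT14 batch a, at 26.1 TP10K, while the other library of the same batch was at 0.10 TP10K. *Corp*, a regulator of p53, had 635 and 142 UMIs at ZT14, against 9, 2 and 7 UMIs at ZT10. Of the 142 UMIs in ZT14 batch b, 117 came from 1 library, without which the batch fell to 0.058 TP10K, against 0.24 TP10K with it. In DD, *Cyp4e3*, *Corp* and *CG7741* lay lower in both CT14 batches than in all CT10 batches, and *Corp* was at 0.081 and 0.027 TP10K at CT14 and at 1.01, 0.37 and 0.24 TP10K at CT10. Without 1 library each, *Corp* was at 0.15 TP10K in CT10 batch a and at 0.031 TP10K in CT10 batch c, and without that library of batch c CT14 and CT10 overlapped. The non-overlap of *Cyp4e3* in DD and of *CG7741* in LD also ended when 1 library was left out. The remaining genes picked by the naming rule, *knrl*, *CG4928*, *Zmynd10* and *CG7741*, were at 0.74 to 1.85 TP10K in ZT14 batch a and at 0.020 to 0.23 TP10K in ZT14 batch b, against at most 0.12 TP10K in ZT10 batches. The other 4 called genes were *CG9527*, *Mst36Fb*, *Spn88Ea* and *Inx2*, an innexin of gap junctions. No gene was called when ZT14 batch a was left out, and 874 genes were called higher and 61 lower when ZT14 batch b was left out, with the lone batch assumed to vary like the other groups. With the date number as a block in a fit of the LD batches, 0 genes were called.

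**Figure D1:**
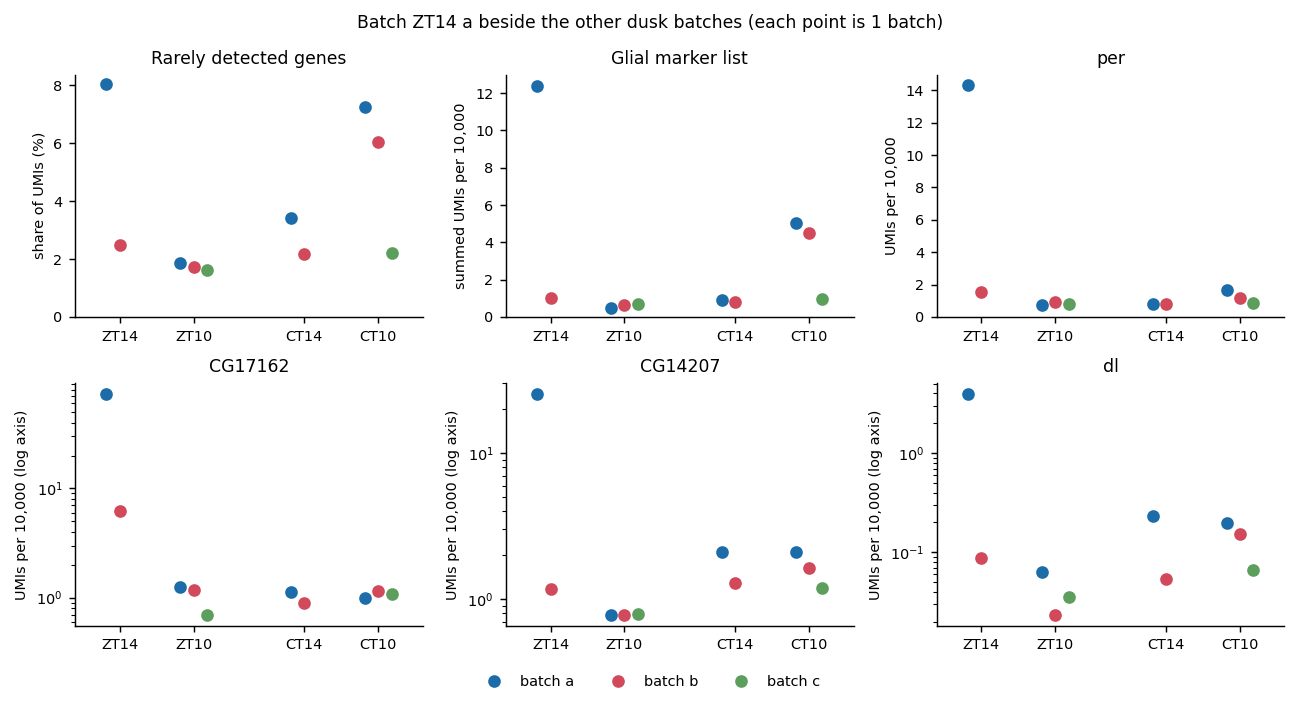
Levels in the 10 dusk batches, with ZT14 left of ZT10 and CT14 left of CT10 and 1 point per batch: the share of UMIs on rarely detected genes in percent, the summed glial markers and *per* in UMIs per 10000 UMIs, and 3 called genes on log axes. ZT14 batch a is the highest point in every panel, at 8.06%, 12.4, 14.3, 72.7, 25.3 and 3.92, and ZT14 batch b lies near the ZT10 batches in all panels except that of *CG17162*.

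In LD every library after dusk was above every library before it for *tim*, *per* and *Pdp1*, and below for *cry*. Libraries of a batch are not independent, and the share of all genes whose libraries separate in this way was not computed. Libraries of *vri*, *cwo* and *Clk* overlapped. None of the 8 core clock genes passed the test in LD, in DD or for the difference. Of the 8, 3 had non-overlapping batches that were higher and 1 that were lower in LD, and 1 higher and 1 lower in DD.

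*tim* lies on chromosome 2L (3493986 to 3508119, minus strand, BDGP6). It was at 24.9 and 19.5 TP10K in ZT14 batches a and b, against 8.20, 12.4 and 10.9 TP10K in ZT10 batches a to c. Over the libraries, *tim* ran from 14.3 through a median of 21.6 to 27.9 TP10K at ZT14 (n = 6) and from 7.31 through 8.98 to 12.8 TP10K at ZT10 (n = 6). Neither batches nor libraries overlapped. The log2 change in LD was 1.06 ± 0.57 (SE, adjusted p = 0.343, edgeR), and 0.80 without ZT14 batch a. In DD, *tim* was at 23.4 and 12.2 TP10K in CT14 batches a and b, against 14.4, 13.3 and 4.097 TP10K in CT10 batches a to c. These batches overlapped, since CT14 batch b lay below CT10 batches a and b. The log2 change in DD was 0.76 ± 0.57 (adjusted p = 0.677, edgeR), and 1.93 without the batches that have over 5% of their UMIs on rarely detected genes, a setting that leaves CT10 with batch c only. Without the cells of a marker-high group, by the fixed limits given below, the log2 change in DD was -0.46. That setting kept 17 and 61 cells in CT14 batches a and b and 36, 3 and 130 cells in CT10 batches a to c. The change in LD minus that in DD was 0.30 ± 0.81 (adjusted p = 0.862, edgeR).

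The lowest cells of a library showed how *tim* was distributed. The 5th percentile of *tim* over the cells was 11.3 and 12.1 TP10K in the libraries of ZT14 batch a and 1.29 to 4.06 TP10K in those of ZT14 batch b, against 0 to 3.29 TP10K in those of ZT10. It was 7.57 to 9.88 TP10K in the libraries of CT14 batch a and 0 to 0.97 TP10K in those of CT14 batch b, against 4.92 to 5.66 TP10K in CT10 batches a and b and 0 to 1.14 TP10K in CT10 batch c. In ZT14 batch a 100% of the cells held a *tim* UMI and in ZT14 batch b 99.7%, against 91.1%, 95.3% and 100% in ZT10 batches a to c. In DD the share was 100% and 86.2% in CT14 batches a and b, against 100%, 100% and 73.2% in CT10 batches a to c. The 5 batches at 100% include all 3 with over 5% of UMIs on rarely detected genes and also ZT10 batch c, which had the lowest such share.

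*per*, whose protein is the partner of TIM in the repressor complex (chromosome X, 2685580 to 2692780), was at 14.3 and 1.54 TP10K in ZT14 batches a and b, against 0.76, 0.91 and 0.79 TP10K in ZT10 batches a to c. Both libraries of ZT14 batch a were high, at 15.8 and 12.5 TP10K, and the other 4 ZT14 libraries lay between 1.29 and 1.73 TP10K. All ZT10 libraries lay below these, at 0.64 to 0.97 TP10K. The log2 change in LD was 3.30 ± 0.72 (adjusted p = 0.063, edgeR), and 0.82 without ZT14 batch a, while *per* was called when ZT14 batch b or CT10 batch c was left out. In DD, *per* was at 0.78 and 0.77 TP10K at CT14, against 1.65, 1.16 and 0.86 TP10K at CT10. Both CT14 batches lay below all CT10 batches, with a log2 change of -0.64 ± 0.72 (adjusted p = 0.783, edgeR), but without 1 library of CT10 batch c, at 1.58 TP10K, that batch was at 0.58 TP10K and the groups overlapped. The LD change minus the DD change was 3.94 ± 1.03 (adjusted p = 0.075, edgeR).

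*Pdp1*, the activator of *Clk* (chromosome 3L, 7811458 to 7867369), was the most abundant of the 8 genes. It was at 77.1 and 90.6 TP10K at ZT14, against 57.5, 69.4 and 62.8 TP10K at ZT10, and at 77.8 and 49.8 TP10K at CT14, against 60.3, 42.0 and 41.2 TP10K at CT10. The 6 ZT14 libraries lay between 75.2 and 96.5 TP10K and the 6 ZT10 libraries between 52.5 and 69.4 TP10K, without overlap, whereas in DD CT14 batch b lay below CT10 batch a. The log2 change was 0.38 ± 0.32 in LD (adjusted p = 0.602, edgeR) and 0.41 ± 0.32 in DD (adjusted p = 0.682, edgeR), and the difference of these changes was -0.03 ± 0.45.

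*vri*, the repressor of *Clk*, averaged 6.06 ± 2.03 TP10K at ZT14 (SD, n = 2 batches) and 6.40 ± 1.17 TP10K at ZT10 (n = 3), and 3.85 ± 1.01 TP10K at CT14 (n = 2) and 3.24 ± 0.64 TP10K at CT10 (n = 3). *cwo*, a repressor that acts on the same promoters as CLK-CYC, averaged 3.73 ± 1.70 TP10K at ZT14 and 3.99 ± 0.54 TP10K at ZT10, and 2.01 ± 0.39 TP10K at CT14 and 1.91 ± 0.53 TP10K at CT10. For *vri* and *cwo* the differences across dusk were smaller than the spread between batches, and their sign changed with the processing.

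*Clk* (chromosome 3L, 7763233 to 7775603) was at 0.30 and 0.55 TP10K at ZT14, against 0.78, 0.97 and 0.48 TP10K at ZT10, a log2 change of -0.83 ± 0.42 (adjusted p = 0.312, edgeR). The batches overlapped, because ZT14 batch b lay above ZT10 batch c. In DD *Clk* was at 0.36 and 0.23 TP10K at CT14, against 0.33, 0.26 and 0.35 TP10K at CT10. *cry* (chromosome 3R, 19212154 to 19215442) was at 0.60 and 0.92 TP10K at ZT14, against 1.42, 1.91 and 1.41 TP10K at ZT10, a log2 change of -1.09 ± 0.48 (adjusted p = 0.226, edgeR). The 6 ZT14 libraries of *cry*, at 0.56 to 1.13 TP10K, lay below the 6 ZT10 libraries, at 1.21 to 1.91 TP10K. In DD *cry* averaged 0.75 ± 0.17 TP10K at CT14 and 0.69 ± 0.15 TP10K at CT10, within the spread between batches. *cyc*, the partner of CLK, was at 0.15 and 0.17 TP10K at ZT14, against 0.25, 0.15 and 0.089 TP10K at ZT10, and at 0.68 and 0.43 TP10K at CT14, against 0.23, 0.33 and 0.16 TP10K at CT10. Its batches overlapped in LD and not in DD, where the log2 change was 1.22 ± 0.54 (adjusted p = 0.609, edgeR). Without 1 library, CT14 batch b was at 0.31 TP10K for *cyc*, and without 1 library, CT10 batch b was at 0.61 TP10K. In either case the DD groups overlapped.

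**Figure D2:**
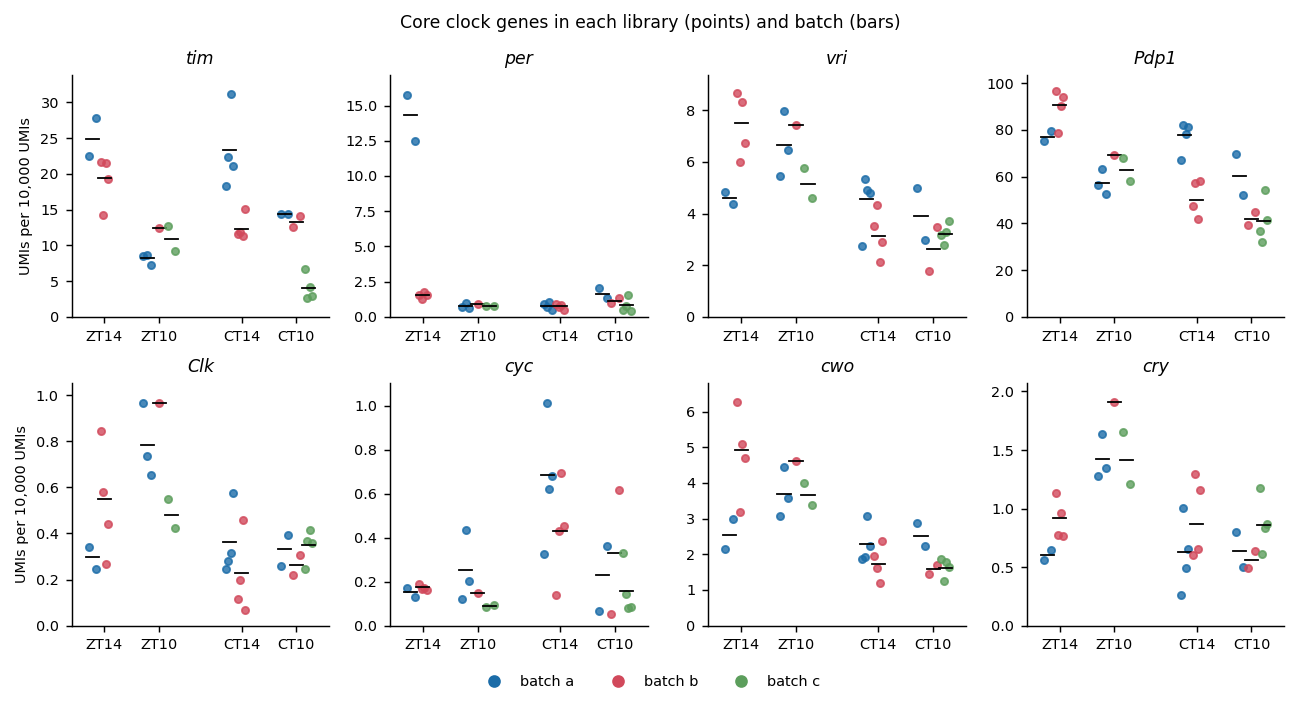
Level of the 8 core clock genes in UMIs per 10000 UMIs in each of the 28 libraries (points, coloured by batch) with the level of each batch as a bar, ZT14 left of ZT10 and CT14 left of CT10. The ZT14 libraries of *tim* (14.3 to 27.9) and *Pdp1* (75.2 to 96.5) lie above those of ZT10, and the ZT14 libraries of *cry* (0.56 to 1.13) lie below. Those of *per* also lie above ZT10, by far in the 2 libraries of ZT14 batch a and by a small margin in those of ZT14 batch b.

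To look within cells of more alike identity, cells were grouped by 1 neuropeptide transcript each: *Pdf* and *ITP*, which mark lateral neurons, *Trissin*, which marks a pair of dorsal lateral neurons, and *CCHa1* and *CNMa*, which mark groups of dorsal neurons. These groups are ranges of a marker level and not cell types. With fixed limits (100 TP10K for *Pdf* and *ITP*, 20 for *Trissin*, 5 for *CCHa1* and *CNMa*) the grouping worked poorly across batches, because 884 of the 1642 cells passed the limit of *CNMa*, with a further 293 cells just under it. In some libraries nearly every cell passed. The 5th percentile of *CNMa* over the cells was 13.6 and 8.15 TP10K in the libraries of ZT14 batch a and 17.9 TP10K in 1 library of ZT10 batch c. Whether clock genes within the groups carry a similar library-wide level was not tested. Every one of the 120 cells of ZT14 batch a was either *CNMa*-high alone (87 cells) or over more than 1 limit (33 cells) and so in no single group, which left ZT14 batch a with no cells in the other 4 groups. Under these limits 1 clock gene was called in 1 group, *Pdp1* in *ITP*-high cells in LD, with a log2 change of 1.25 ± 0.23 (adjusted p = 2.06e-05, edgeR), in a fit with 1 residual degree of freedom and 1 ZT14 batch that called 1.34% of 3579 genes higher and 0.754% lower. It was not called with the limit doubled (adjusted p = 0.657, edgeR). A second limit, chosen after seeing the data, was therefore added: a cell also had to reach 3 times the median cell of its own library for that gene. It left 10 and 44 *Pdf*-high cells in ZT14 batches a and b, 20, 6 and 11 in ZT10 batches a to c, 16 and 11 in CT14 batches a and b and 9, 8 and 16 in CT10 batches a to c. The other groups held 1 to 33 cells per batch, and batches with fewer than 3 cells were left out. The values that follow use this second limit. None of the clock genes was called under it, where 0.0707% of all genes tested were called higher in LD in *Pdf*-high, 0.514% in *ITP*-high (with 0.0411% called lower), 0.0236% in *Trissin*-high (with another 0.0236% called lower), 0.0237% in *CCHa1*-high and 0.0145% in *CNMa*-high cells and 0 in DD. The 5 groups come from the same libraries and are not independent of each other.

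*tim* was higher at ZT14 in 4 of 5 groups without overlap of batches, and at CT14 in 3 of the 4 groups that could be compared in DD, those of *Pdf*, *Trissin* and *CCHa1*, the last with 1 CT14 batch. In *Pdf*-high cells *tim* was at 35.6 and 32.8 TP10K in ZT14 batches a and b, against 17.0, 21.6 and 12.95 TP10K in ZT10 batches a to c. It was at 46.7 and 58.6 TP10K in CT14 batches a and b, against 18.3, 22.5 and 7.30 TP10K in CT10 batches a to c. In both light conditions every batch after dusk was above every batch before it, where this holds in the higher direction for 16.3% of the genes tested in these cells in LD and for 10.8% in DD. The log2 change was 1.23 ± 0.47 in LD (adjusted p = 0.204, edgeR) and 1.56 ± 0.47 in DD (adjusted p = 0.622, edgeR), and the LD change minus the DD change was -0.33 ± 0.67 (adjusted p = 0.908, edgeR).

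*Trissin*-high cells had the widest gap. *tim* was at 22.9 and 20.6 TP10K in ZT14 batches a and b, against 6.06, 6.40 and 5.27 TP10K in ZT10 batches a to c, and at 45.9 and 37.3 TP10K in CT14 batches a and b, against 7.68 and 2.28 TP10K in CT10 batches a and c. The log2 change was 2.13 ± 0.63 in LD (adjusted p = 0.102, edgeR, against a background of 13.8% non-overlapping higher genes) and 2.92 ± 0.75 in DD (adjusted p = 0.354, edgeR, background 15.2%). These groups held 6 and 16 cells in ZT14 batches a and b, 3 to 8 cells in ZT10 batches, 4 and 7 cells in CT14 batches and 4 cells each in CT10 batches a and c. In *ITP*-high cells *tim* was at 33.5 and 23.5 TP10K at ZT14, against 10.2, 11.03 and 9.67 TP10K at ZT10, a log2 change of 1.59 ± 0.46 (adjusted p = 0.097, edgeR, background 16.5%). CT10 had at most 2 *ITP*-high cells per batch, so *ITP*-high cells give no comparison in DD. *CCHa1*-high cells were at 20.2 and 16.4 TP10K at ZT14, against 11.3, 14.6 and 14.3 TP10K at ZT10 (background 14.7%). In DD they were at 24.7 TP10K in CT14 batch a, against 15.1 and 7.09 TP10K in CT10 batches a and c, where 33.9% of the genes tested were higher without overlap. In *CNMa*-high cells *tim* overlapped between ZT14, at 31.9 and 25.7 TP10K, and ZT10, at 19.97, 27.6 and 18.98 TP10K, and also between CT14 and CT10.

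*Pdp1* was higher at ZT14 without overlap in 3 of the 5 groups, those of *Pdf*, *ITP* and *Trissin*, and in *Pdf*-high cells by a narrow margin (76.2 TP10K in ZT14 batch a, against 75.7 TP10K in ZT10 batch a). In *ITP*-high cells it was at 96.1 and 110 TP10K at ZT14, against 53.4, 43.9 and 48.5 TP10K at ZT10, with a log2 change of 1.19 ± 0.42 (adjusted p = 0.184, edgeR). In *Trissin*-high cells it was at 79.0 and 98.8 TP10K at ZT14, against 48.5, 40.3 and 40.9 TP10K at ZT10, and at 104 and 121 TP10K at CT14, against 42.9 and 43.6 TP10K at CT10. The log2 changes of *Pdp1* in *Trissin*-high cells were 1.29 ± 0.32 in LD (adjusted p = 0.080, edgeR) and 1.28 ± 0.36 in DD (adjusted p = 0.430, edgeR). In *CCHa1*-high and *CNMa*-high cells the *Pdp1* levels of ZT14 and ZT10 overlapped, with means of 108 ± 31.6 TP10K at ZT14 and 115 ± 24.03 TP10K at ZT10 in *CCHa1*-high cells. In DD, *Pdp1* was higher without overlap in all 4 groups that could be compared, where such genes make up 10.8% of those tested in *Pdf*-high, 15.2% in *Trissin*-high, 33.9% in *CCHa1*-high and 10.8% in *CNMa*-high cells. *CCHa1*-high cells had 1 CT14 batch.

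*Clk* and *cry* were lower at ZT14 without overlap in all 5 groups, where such genes make up 12.5% of those tested in *Pdf*-high, 9.58% in *ITP*-high, 16.6% in *Trissin*-high, 7.88% in *CCHa1*-high and 10.9% in *CNMa*-high cells. *cry* averaged 0.79 ± 0.42 TP10K at ZT14 and 3.499 ± 0.859 TP10K at ZT10 in *Pdf*-high cells (log2 change -1.95 ± 0.60, adjusted p = 0.133, edgeR). It averaged 1.72 ± 0.23 TP10K at ZT14 and 4.05 ± 0.38 TP10K at ZT10 in *ITP*-high cells. *Clk* averaged 0.27 ± 0.31 TP10K at ZT14 and 2.33 ± 1.20 TP10K at ZT10 in *Trissin*-high cells (log2 change -2.74 ± 0.89, adjusted p = 0.131, edgeR), which rested on 1 and 20 UMIs in ZT14 batches a and b. In DD, *cry* overlapped between CT14 and CT10 in all 4 groups and *Clk* in 3 of them, and *Clk* was lower without overlap in *Trissin*-high cells (background 17.1%, against 11% in *Pdf*-high, 22.3% in *CCHa1*-high and 12.3% in *CNMa*-high cells, where it overlapped). The change of *cry* in LD minus that in DD was -0.86 ± 0.81 in *Pdf*-high cells (adjusted p = 0.722, edgeR) and -1.16 ± 0.78 in *CCHa1*-high cells (adjusted p = 0.809, edgeR), so a difference between the light conditions was not shown.

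*per* in ZT14 batch a was nearly the same in every group of cells, at 13.8 TP10K in *Pdf*-high, 13.97 in *ITP*-high, 13.9 in *Trissin*-high, 14.5 in *CCHa1*-high and 13.2 in *CNMa*-high cells. In ZT14 batch b it ran from 1.61 to 2.71 TP10K over these groups, and at ZT10 from 0.49 to 2.77 TP10K.

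**Figure D3:**
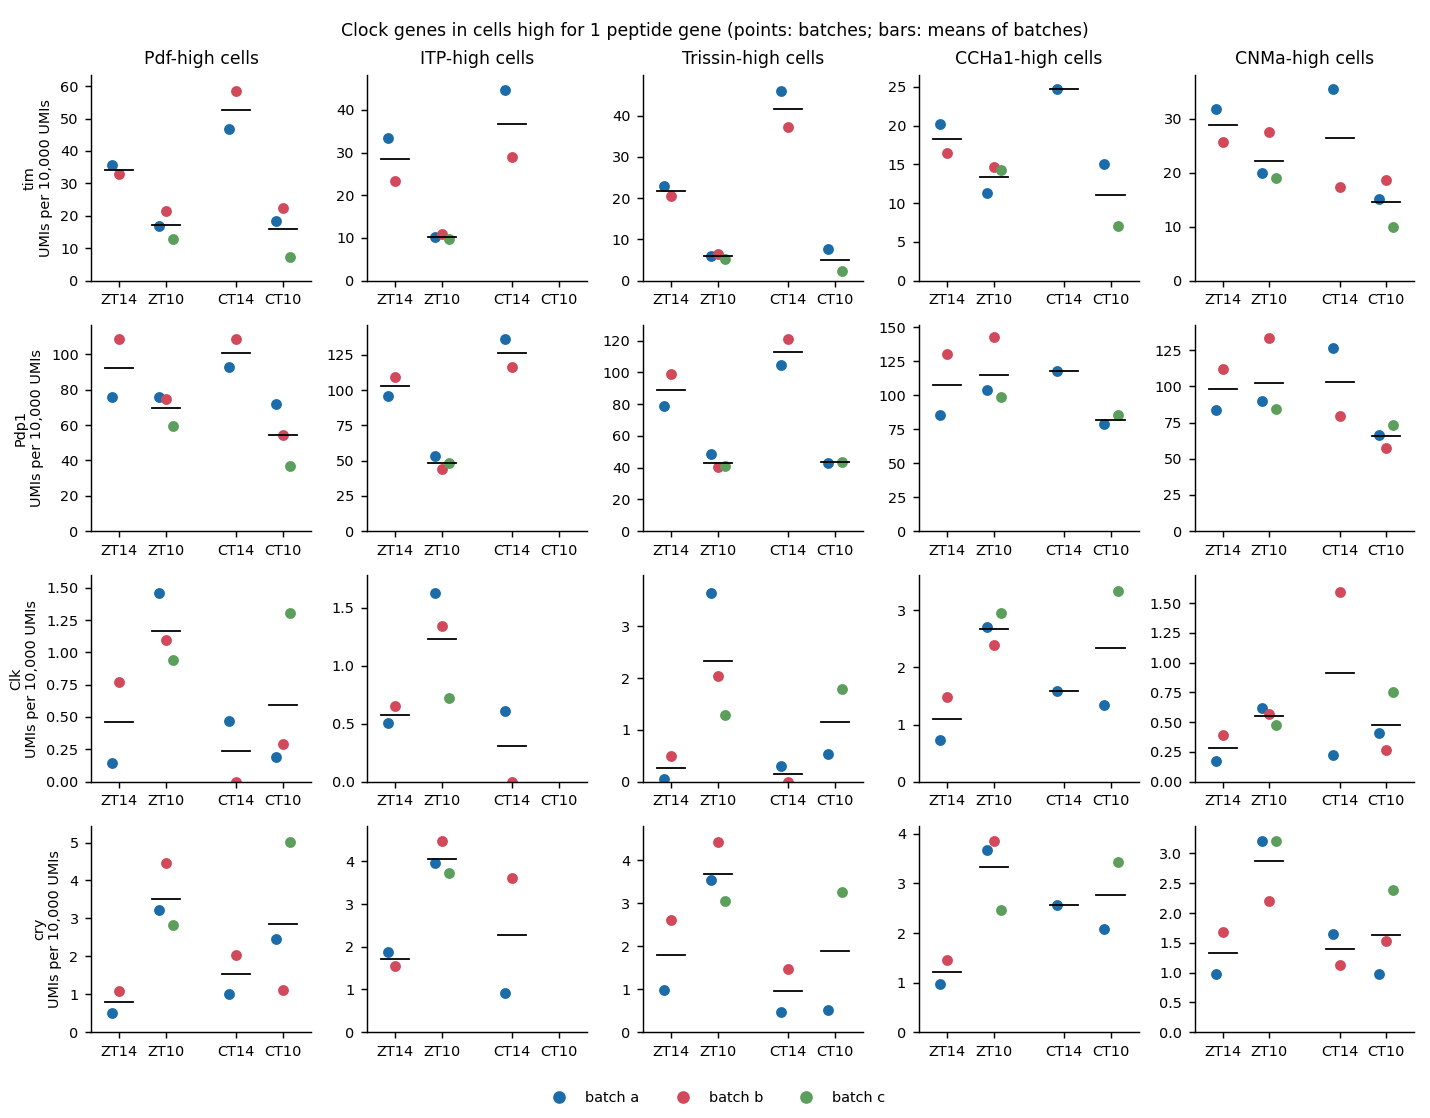
*tim*, *Pdp1*, *Clk* and *cry* (rows) in cells high for 1 neuropeptide transcript (columns), in UMIs per 10000 UMIs, with 1 point per batch of at least 3 cells and a bar for the mean of the batches, ZT14 left of ZT10 and CT14 left of CT10. In *Pdf*-high cells *tim* lies at 32.8 and 35.6 at ZT14, against 12.95 to 21.6 at ZT10, and *cry* lies lower at ZT14 than at ZT10 in all 5 groups.

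Among the neuropeptides, *ITP*, an ion transport peptide, was at 32.9 and 36.6 TP10K at ZT14 and 30.1, 30.8 and 37.2 TP10K at ZT10, which overlap, and at 46.8 and 63.5 TP10K at CT14, against 12.0, 4.18 and 3.70 TP10K at CT10. The CT14 batches were above all CT10 batches, with a log2 change of 3.10 ± 0.92 (adjusted p = 0.609, edgeR). The number of *ITP*-high cells differed in the same direction, at 6 and 8 in CT14 batches a and b and 2, 1 and 1 in CT10 batches a to c, a number that is itself defined by the level of *ITP*. The libraries of *ITP* overlapped in DD, with libraries of CT14 batch a at 0.12 and 2.23 TP10K and a library of CT10 batch c at 12.9 TP10K. Without its highest library, CT14 batch a was at 19.5 TP10K, and CT10 batch a without its highest was at 0.052 TP10K. The batches did not overlap in either case. In the highest library of CT14 batch a the 5th percentile of *ITP* over the cells was 35.9 TP10K. *Pdf*, the main peptide of the ventral lateral neurons, was at 40.8 and 115 TP10K at ZT14, against 47.1, 30.0 and 56.7 TP10K at ZT10, which overlap. In 1 library of ZT14 batch b the 5th percentile of *Pdf* over the cells was 54.8 TP10K, so nearly every cell there held the transcript. *Dh31*, a diuretic hormone of dorsal neurons, was lower at ZT14 (3.68 and 5.47 TP10K) than at ZT10 (5.88 to 9.54 TP10K). It was higher at CT14 (9.65 to 12.3 TP10K) than at CT10 (6.59 to 7.46 TP10K), without overlap in either. Of 31 neuropeptide genes tested, 0 were called in either light condition.

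Among gene lists of other functions, 0 members were called, and counts of members are read against the 2208 genes with a median of at least 0.5 TP10K. Of these genes, 27.7% had a log2 change above 0 in LD and 59.9% in DD, 8.42% were higher and 26.5% lower without overlap in LD, and 17.6% were higher and 8.24% lower without overlap in DD. The well-measured genes were thus shifted down across dusk in LD and up in DD, with medians of -0.30 in LD and 0.11 in DD, and of -0.13 in LD and -0.12 in DD without the batches over 5% in rarely detected genes. Over all genes tested the medians were 0.10 in LD and -0.09 in DD.

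Transcripts of the mitochondrial genome, which include mRNAs for subunits of the respiratory chain, lay lower after lights-off, although no single gene passed the test. Of the 33 measured, 20 passed the filter on low counts, 0 of these had a log2 change above 0 in LD, and 17 were lower without overlap. The sum over all 33 is not one of subunit mRNAs alone, since its most abundant member was a tRNA entry, *mt:tRNA:L:CUN*. The summed level was 327 and 459 TP10K in ZT14 batches a and b, against 737, 850 and 719 TP10K in ZT10 batches a to c. In DD it was 519 and 1173 TP10K at CT14, against 559, 718 and 1056 TP10K at CT10. The LD groups did not overlap and the DD groups did. *mt:CoI*, a subunit of cytochrome oxidase, was at 49.7 to 59.8 TP10K at ZT14, against 72.9 to 101 TP10K at ZT10, with a log2 change of -0.69 (adjusted p = 0.459, edgeR). *mt:ND1*, a subunit of complex I, was at 8.12 to 12.5 TP10K at ZT14, against 18.8 to 41.1 TP10K at ZT10, with a log2 change of -1.53 (adjusted p = 0.303, edgeR). The median over the tested genes was -1.27 in LD and 0.06 in DD, and without the batches over 5% it was -0.90 in LD and -0.53 in DD, below 0 in both. Within *CNMa*-high cells the sum was 441 and 548 TP10K at ZT14, against 824, 738 and 834 TP10K at ZT10. Within *Pdf*-high cells, where the groups overlapped, it was 250 and 399 TP10K at ZT14, against 379, 675 and 495 TP10K at ZT10.

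Genes of synaptic vesicles and the active zone also lay lower at ZT14. None of 24 had a log2 change above 0 in LD, 16 were lower without overlap, and the median was -0.60 in LD and 0.02 in DD, where 14 of 24 were above 0. Without the batches over 5% the medians were -0.36 in LD and -0.40 in DD, so the LD and DD medians then differed little. The summed level was 110 and 175 TP10K at ZT14, against 238, 225 and 204 TP10K at ZT10, and 211 and 218 TP10K at CT14, against 169, 188 and 240 TP10K at CT10. *cpx*, the fusion clamp complexin, was at 9.15 to 21.1 TP10K at ZT14, against 27.4 to 40.1 TP10K at ZT10, with a log2 change of -1.20 (adjusted p = 0.138, edgeR). *Syt1*, the calcium sensor of vesicle release, was at 9.85 to 15.8 TP10K at ZT14, against 22.7 to 25.5 TP10K at ZT10, with a log2 change of -0.97 (adjusted p = 0.097, edgeR). In each case ZT14 batch a was the lowest batch. Peptide processing enzymes showed the same signs, with 0 of 11 above 0 in LD (median -0.65) and 10 of 11 in DD (median 0.24). Genes of the early secretory pathway had 5 of 38 above 0 in LD (median -0.43, and -0.11 without the batches over 5%) and 29 of 38 in DD (median 0.33, and 0.08 without them). Without the batches over 5%, the medians of the peptide processing enzymes were -0.37 in LD and -0.14 in DD.

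In DD, cytoplasmic ribosomal proteins and heat shock genes were the lists with the most members whose batches were higher after subjective dusk without overlap. Of 81 ribosomal protein genes tested, 76 had a log2 change above 0 in DD and 62 were higher without overlap, with a median of 0.54, and of 0.31 without the batches over 5%. In LD the median was -0.19, and 0.16 without those batches. Their sum was 294 and 351 TP10K at CT14, against 247, 238 and 224 TP10K at CT10, and in LD 134 and 241 TP10K at ZT14, against 239, 237 and 176 TP10K at ZT10. The sum did not overlap in DD and overlapped in LD. *RpS3A*, of the small subunit, was at 6.81 to 7.15 TP10K at CT14, against 3.95 to 4.34 TP10K at CT10 (log2 change 0.76, adjusted p = 0.612, edgeR). *RpL3*, of the large subunit, was at 7.42 to 10.7 TP10K at CT14, against 5.18 to 6.97 TP10K at CT10 (log2 change 0.63, adjusted p = 0.611, edgeR). In *Pdf*-high cells the sum was 360 and 542 TP10K at CT14, against 308, 335 and 345 TP10K at CT10.

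Of 30 heat shock and chaperone genes tested, 25 had a log2 change above 0 in DD and 15 were higher without overlap, with a median of 0.63, and of 0.79 without the batches over 5%. In LD 10 of 30 were above 0, with a median of -0.28, and of 0.03 without those batches. The summed level was 131 and 76.8 TP10K at CT14, against 62.8, 47.7 and 69.6 TP10K at CT10, and 67.7 and 140 TP10K at ZT14, against 158, 148 and 132 TP10K at ZT10. *Hsc70-4*, the main constitutive Hsp70, was at 8.83 to 13.7 TP10K at CT14, against 5.71 to 6.67 TP10K at CT10 (log2 change 0.89, adjusted p = 0.609, edgeR). *Hsp70Ba*, 1 of several near-identical stress-induced copies among which the counting may split UMIs, was at 1.80 to 9.70 TP10K at CT14, against 1.01 to 1.62 TP10K at CT10 (log2 change 1.98, adjusted p = 0.609, edgeR). All CT10 batches lay below both CT14 batches, and in LD ZT14 batch a lay far below ZT14 batch b.

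**Figure D4:**
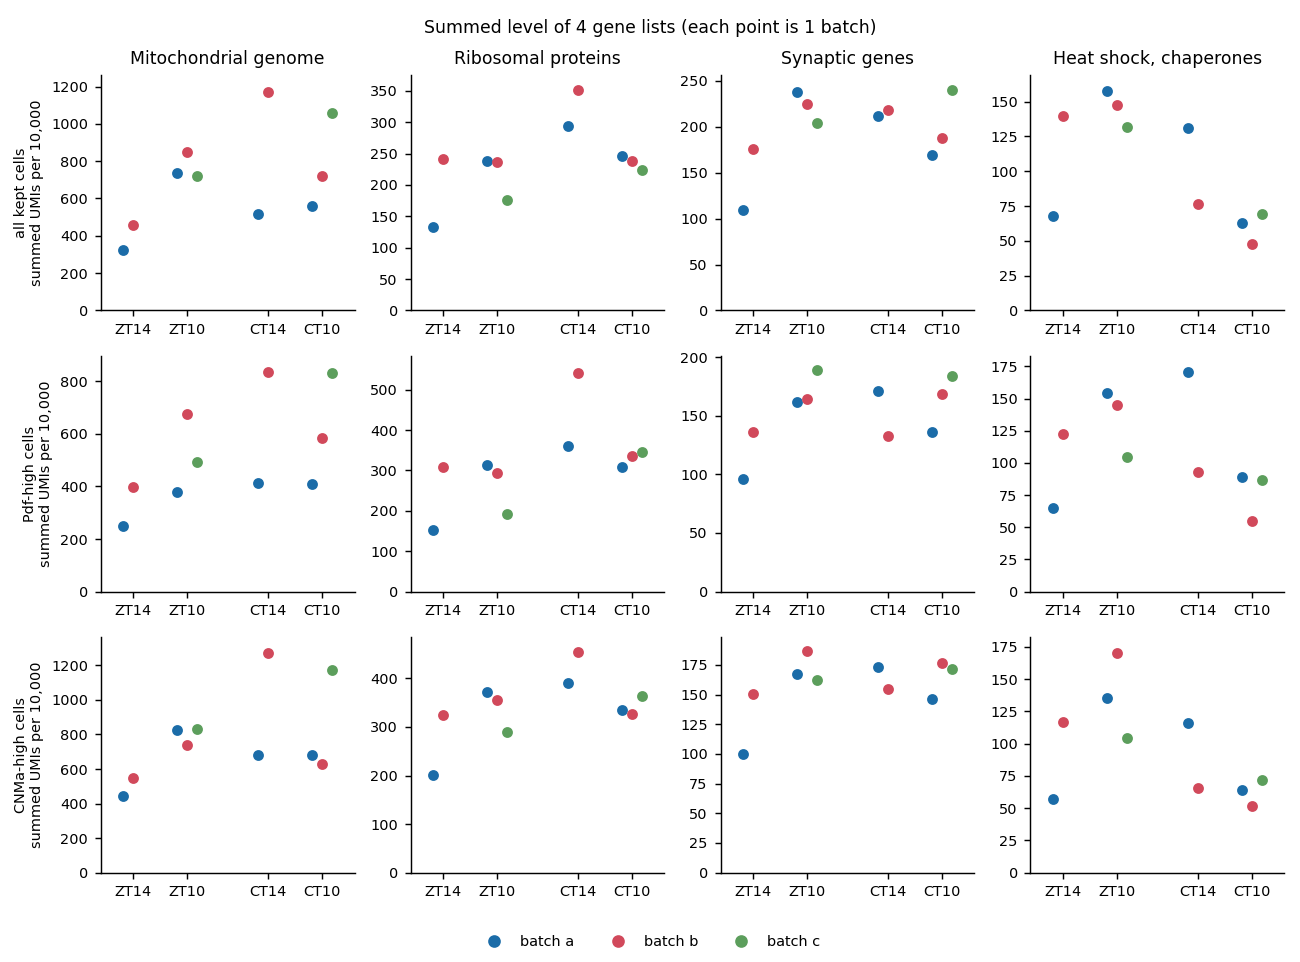
Summed level of 4 gene lists in UMIs per 10000 UMIs, 1 point per batch, in all kept cells (top), *Pdf*-high cells (middle) and *CNMa*-high cells (bottom), ZT14 left of ZT10 and CT14 left of CT10. In all kept cells the mitochondrial transcripts lie at 327 and 459 at ZT14, against 719 to 850 at ZT10, and the ribosomal protein transcripts at 294 and 351 at CT14, against 224 to 247 at CT10.

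No member of the lists closer to the clock was called. Of 19 kinases, phosphatases and degradation factors of clock proteins, 4 had a log2 change above 0 in LD and 9 in DD, with 0 higher and 5 lower without overlap in LD and 2 higher and 2 lower in DD. The median in LD was -0.36, and -0.14 without the batches over 5%. *nmo*, the Nemo kinase, which phosphorylates PER, was at 8.35 and 9.06 TP10K at ZT14, against 15.3, 14.5 and 11.04 TP10K at ZT10, and at 6.07 and 4.34 TP10K at CT14, against 8.42, 7.44 and 6.42 TP10K at CT10. *Pka-C1*, the catalytic subunit of protein kinase A, was at 7.48 and 8.30 TP10K at ZT14, against 13.4, 13.9 and 10.7 TP10K at ZT10, and at 7.396 and 6.74 TP10K at CT14, against 8.06, 8.22 and 10.1 TP10K at CT10. Both kinases were lower after dusk in LD and in DD without overlap, which for *nmo* in DD ended without 1 library of CT10 batch c, with log2 changes of -0.66 ± 0.33 in LD and -0.52 ± 0.33 in DD for *nmo* and of -0.70 ± 0.30 in LD and -0.33 ± 0.30 in DD for *Pka-C1*, and none of these passed the test (adjusted p = 0.306, 0.649, 0.212 and 0.729, edgeR). Of 12 activity-regulated transcription factors, 5 were above 0 in LD and 8 in DD, and of 21 light input genes 13 in LD and 9 in DD.

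The study named 3 further genes as cycling in several groups of clock neurons from these samples, so their direction is not independent evidence. *Argk*, arginine kinase, was at 2.07 and 3.35 TP10K at ZT14, against 8.42, 9.64 and 6.18 TP10K at ZT10, a log2 change of -1.60 ± 0.46 (adjusted p = 0.088, edgeR), and at 5.19 and 10.4 TP10K at CT14, against 2.77, 3.18 and 9.01 TP10K at CT10. It was lower without overlap in LD and overlapped in DD, and the LD change minus the DD change was -2.23 ± 0.62 (adjusted p = 0.080, edgeR). *CG15628* was at 14.2 and 17.5 TP10K at ZT14, against 10.1, 11.6 and 9.54 TP10K at ZT10, and at 7.83 and 13.9 TP10K at CT14, against 6.69, 6.38 and 7.26 TP10K at CT10, higher in every batch after dusk in both light conditions, although in DD the groups overlapped without 1 library of CT10 batch c. *fne*, a neuronal RNA-binding protein, was at 18.999 to 26.6 TP10K at ZT14, against 31.6 to 37.8 TP10K at ZT10, and overlapped in DD.

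Across the 2208 well-measured genes, the changes in LD and in DD had opposite signs for most genes when all batches were used. The Pearson correlation of the log2 changes was -0.40, and 35.0% of the genes had the same sign. Without the batches over 5% in rarely detected genes, the correlation was 0.21, and 59.9% had the same sign. LD and DD share no batches, but the genes share libraries and depth within each, so these values describe the 2 sets of libraries and were not tested. ZT14 batch a is on the later side in LD and CT10 batches a and b are on the earlier side in DD.

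**Figure D5:**
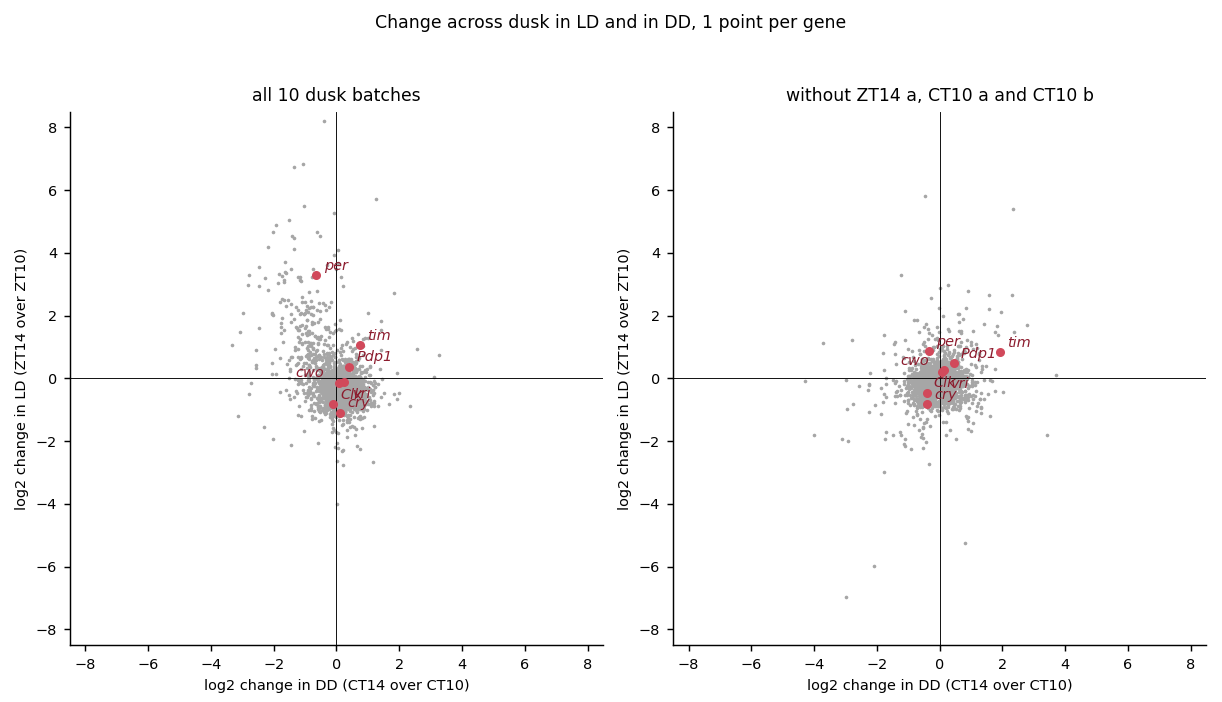
Log2 change across dusk in LD (ZT14 over ZT10, vertical axis) against that in DD (CT14 over CT10, horizontal axis) for the 2208 genes with a median of at least 0.5 TP10K (grey points), with 7 core clock genes in red, in all dusk batches (left) and without ZT14 batch a and CT10 batches a and b (right; CT02 batch a also left the fit). The cloud slopes downward on the left (Pearson -0.40) and faintly upward on the right (0.21), and *tim* and *Pdp1* lie above 0 on both axes in both panels.

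Among the 558 genes whose mean level reached 3 TP10K, 21 differed without overlap in the same direction in LD and DD, 5 higher and 16 lower after dusk, and 25 differed in opposite directions. The shares of these 558 genes that did not overlap were 11.5% higher and 31.0% lower in LD and 14.9% higher and 11.8% lower in DD. The 5 genes higher in both, named here after their values were seen, were *CG15628*, *CG3662*, *CG45263*, *CG6770* and *RpL7A*. The 16 lower in both included, besides *nmo* and *Pka-C1*, *Snap25*, a SNARE protein of vesicle release, *Ace*, acetylcholinesterase, *Sh*, the Shaker potassium channel, *tau*, a microtubule-associated protein, and *slgA*, a proline dehydrogenase. *slgA* was at 1.54 and 2.42 TP10K at ZT14, against 5.08, 4.35 and 4.25 TP10K at ZT10, a log2 change of -1.24 ± 0.30 (adjusted p = 0.069, edgeR), and at 4.61 and 4.21 TP10K at CT14, against 4.89, 5.17 and 4.62 TP10K at CT10, a log2 change of -0.15 ± 0.29. The gap in DD was narrow, and the groups overlapped without 1 library of CT14 batch a (4.69 TP10K) or 1 of CT10 batch c (4.39 TP10K).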

How the data were processed

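The values are raw UMI counts for each gene in each well, deposited by the authors, who had mapped the CEL-Seq2 reads with STAR inside zUMIs (genome dm6) and counted exons. The strand setting of the counting is not given in the sources used here. The labels name bcl2fastq 2.20. Neither library sizes nor tests include the spike-in rows (2.14% of the UMIs of the kept cells) or EGFP (0.213%). Well limits followed the study's methods. Entropy was computed as Shannon entropy over the fractions of a well's UMIs (natural logarithm), whereas the methods write it on UMI numbers, and the number of cells kept is not the same as the study's. The 28 dusk libraries share 92 well barcodes with all others, as CEL-Seq2 uses 1 barcode set, and doublets were not called. Gene coordinates came from the Ensembl annotation of BDGP6 (dm6), matched by symbol for 160 of 168 named genes.

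UMIs were summed per batch, a date number within 1 time point. The labels do not say whether batches are separate flies, so p-values measure the spread between these batches. All 28 batches entered 1 fit with 12 groups in edgeR 4.0.16 (R 4.3.3), with TMM factors, filterByExpr, the quasi-likelihood test and Benjamini-Hochberg adjustment, and a call needed an adjusted p below 0.05. SE is the log2 change over the root of F. TP10K is UMIs per 10000 UMIs, pooled over the cells of a batch. The text names the core clock genes, up to 10 called genes per comparison and direction with the smallest adjusted p and no overlap of batches, up to 4 called members per list, and marker genes. Other members named are the most abundant of their list or were chosen after their values were seen. Members and lists were chosen with earlier results of these data known.

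Data for all 28 batches were simulated on 10616 genes with 3 draws, from 1 mean level per gene, with changes placed at ZT14 only. The LD test called 0%, 9.42% and 33% of genes changed by log2 values of 1, 2 and 3 at the estimated noise. It made 1 false call among 29646 unchanged genes. With counting noise alone it called 75.7%, 96% and 95.9%. A batch that departs in many genes together was not simulated, so the false calls do not give the rate in these data. For the LD change minus the DD change the shares at the estimated noise were 0%, 0% and 10.1%. Alternatives were no filter, library size, RLE factors, DESeq2 1.42.0, libraries as units, the 10 dusk batches, cells thinned to 6000 UMIs, at least 1000 genes as the only cell limit, an added fold limit, leaving out marker-high cells or each batch, and LD batches with or without a replicate block. Leaving out the batches over 5%, the share of rarely detected genes as a covariate, only genes with a median of at least 0.5 TP10K, limma voom 3.58.1, the relative marker limit and leaving out single libraries were chosen after seeing the data.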

Additional observations from a re-analysis of the deposited data

Results flagged for a closer look

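Among 48 sets of library values, 1 held a library far from the others, where chance alone gives about 1 in 20. The sets covered the core clock genes, the share of rarely detected genes, median UMIs and genes per cell, and EGFP. *cyc* was at 0.44 TP10K (0.43531) in 1 library of ZT10 batch a, and the nearest of the other ZT10 libraries was at 0.20 TP10K (0.20422). For 4 genes every LD batch after dusk was higher and every DD batch after dusk lower than all batches before it. The LD change minus the DD change was 3.94 (3.9377) on the log2 scale for *per*, 16.8 (16.808) for *Cyp4e3*, 9.06 (9.0555) for *Corp* and 4.76 (4.7576) for *CG7741*. The value for *Cyp4e3* depends on the prior count of the fit, since all ZT10 batches had 0 UMIs. The interaction did not pass the test for any of them (adjusted p = 0.075 for *per*, 0.055 for *Cyp4e3*, 0.074 for *Corp* and 0.075 for *CG7741*, edgeR). All 4 were highest in ZT14 batch a, and their highest DD level was in CT10 batch a, both batches with over 5% of UMIs on rarely detected genes. For *per*, *Cyp4e3* and *Corp* in DD and *CG7741* in LD, the non-overlap of batches ended when 1 library was left out. The part of this share in the differences was not tested beyond leaving out batches and using the share, which comes from the same UMIs, as a covariate.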

How the results depend on the processing

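Of the values that answer a comparison, 157 alternatives left the call as it was, 13 moved a count by over 1.5 times, 18 added calls and 13 removed them. Of those of single genes, 406 left the call, 151 lost it, 6 added one and 55 reversed the sign. The cause was not tested except where fewer samples or genes set it. The 14 genes called higher at ZT14 became 142 without a filter, 1 with library size only, 856 with libraries as units, 1 in cells thinned to 6000 UMIs, 776 with DESeq2 and, among alternatives chosen after seeing the data, 3 with genes of a median of at least 0.5 TP10K and 6 with limma voom. They became 0 with only the 10 dusk batches, without cells of a marker-high group, without the batches over 5%, with the covariate, and in LD batches alone both with no block and with the replicate block. The setting without cells of a marker-high group held 0 cells of ZT14 batch a, so that ZT14 was batch b alone. Leaving out 1 batch gave 0 to 874. Genes called lower at ZT14 were 129 with libraries as units and 35 with DESeq2, and 0 to 61 with 1 batch left out. In DD, libraries as units gave 105 higher and 516 lower, and DESeq2 gave 1 higher and 6 lower. Genes that differed between LD and DD were 101 without a filter, 1370 with libraries as units, 1 with 1000 genes as the only limit, 995 with DESeq2 and 0 to 931 with 1 batch left out. Libraries of a batch are not independent, which the setting with libraries as units ignores. The call of *Pdp1* in *ITP*-high cells became 0 calls with the limit doubled, with at least 1 cell per batch and with the relative limit, and in *CNMa*-high cells 1 clock gene was called without a filter, and 0 to 1 with 1 batch left out.

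The sign of the log2 change in LD reversed for *vri* with RLE factors (0.086), libraries as units (0.14), without marker-high cells (0.32), with the replicate block (0.55), without the batches over 5% (0.20), with the median filter (0.17) and with DESeq2 (0.0863). It reversed for *cwo* in LD under the same settings (0.0413, 0.16, 0.37, 0.58, 0.27, 0.12 and 0.0426) and with the covariate (0.28). Leaving out 1 batch gave -0.49 to 0.15 for *vri* and -0.69 to 0.22 for *cwo* in LD. *Clk* in LD was at 0.0747 without marker-high cells. *cyc* in LD was at -0.0445 without a filter, -0.19 without marker-high cells, -0.10 with limma voom and -0.26 to 0.44 with 1 batch left out. In DD, without marker-high cells, *tim* was at -0.46, *vri* at -0.41 and *cwo* at -1.20. Without marker-high cells, 0 cells of ZT14 batch a and 3 cells of CT10 batch b were left. *per* in DD was at 0.18 with the covariate. *Clk* in DD was at 0.0024 with 1000 genes as the only limit and 0.0528 with limma voom. *cwo* in DD was at -0.0247 with RLE factors, -0.0244 with libraries as units, -0.0233 with DESeq2, -0.0262 with the 10 dusk batches, -0.0109 with the median filter and -0.21 with the covariate. *cry* in DD was at -0.12 with libraries as units, -0.39 without the batches over 5% and -0.28 with the covariate. With 1 batch left out, the DD change ran from -0.0177 to 0.42 for *vri*, -0.43 to 0.13 for *Clk*, -0.10 to 0.26 for *cwo* and -0.22 to 0.37 for *cry*.

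ZT14 and ZT10 share no date number and are linked only through ZT02, and the number of ZT14 batch a stands alone, so the replicate block estimates LD from ZT14 batch b. Paired in this way, the log2 change was 1.39 for *tim*, 0.57 for *per*, -0.40 for *CG17162*, -3.04 for *SmydA-1*, -0.16 for *dl* and -0.42 for *CG14207*. For DD and for LD against DD no paired analysis was possible because no date number links the groups.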

Other observations

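Of 14 transcripts that mark fast transmitters, such as vesicular transporters and synthetic enzymes, 3 had a log2 change above 0 in LD and 10 in DD. Of the well-measured genes, 27.7% were above 0 in LD and 59.9% in DD. The median of the transmitter transcripts was -1.16 in LD and 0.08 in DD, against -0.30 and 0.11 for the well-measured genes. Without the batches over 5% it was -0.79 in LD and -0.42 in DD, against -0.13 and -0.12. Neuropeptide receptors had 14 of 30 above 0 in LD and 12 of 30 in DD, ion channels 12 of 30 in each, the DIP and dpr families of cell surface proteins 15 of 30 in LD and 16 of 30 in DD, genes of cyclic nucleotide signalling 12 of 25 in LD and 10 of 25 in DD, and genes of axon remodelling 7 of 16 in LD and 11 of 16 in DD. None of their members was called.

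EGFP, which the driver expresses and which was left out of the library sizes, was at 12.6 and 17.9 UMIs per 10000 in ZT14 batches a and b, against 13.5, 16.2 and 12.999 in ZT10 batches a to c. It was at 32.6 and 40.0 in CT14 batches a and b, against 10.3, 7.29 and 22.5 in CT10 batches a to c, without overlap. *mt:Cyt-b*, a subunit of complex III, was at 25.2 to 27.0 TP10K at ZT14, against 48.6 to 53.4 TP10K at ZT10.

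With 2 batches at ZT14 and 2 at CT14, few changes pass the test at this spread between batches, and genes that did not pass are not shown to be level. Batch and time cannot be told apart where a date number holds 1 time point. UMIs per spike-in UMI ran from 13.03 to 12950 over the libraries, and RNA per cell was not compared.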
